A study of Mus musculus with 8 samples.

Results

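The cytosolic ribosomal proteins are the structural proteins of the large and small subunits of the cytoplasmic ribosome, and their genes were followed here in mouse liver with and without a hepatocyte deletion of Opa1. Members were chosen by name (Rpl and Rps symbols, Rplp0, Rplp1, Rplp2 and Rpsa, without pseudogenes and the Rps6k kinases) and by a mean of at least 5 TPM over all libraries, where TPM is a transcript level corrected for length. Of 85 matching names among 35976 genes of the table, 81 were kept, 48 of the large and 33 of the small subunit. All 81 also passed the filter on low counts and were tested among 14036 genes. The members just inside the minimum were Rps4l at a mean of 19.4 TPM, Rpl7l1 at 23.8 TPM and Rps15a at 39.8 TPM, and those just outside were Rpl32l at 0.414 TPM, Rpl3l at 0.180 TPM and Rpl39l at 0.151 TPM, while Rpl10l was listed at 0.

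Whole liver was sequenced as stranded mRNA from 5 samples with the genotype CTRL and 3 samples with the genotype OPA1 LKO, and the treatment of both groups was a High Fat Diet. OPA1 LKO stands for a knockout in hepatocytes of Opa1, the GTPase that fuses the inner mitochondrial membrane. The labels give neither strain, sex, age and length of the diet, nor the Cre driver, the exons removed, any batch, or whether each sample is a separate animal. A p-value thus speaks only of the spread among these samples, part of which may be technical.

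Ribosomal proteins are made in nearly equal amounts, one copy of most of them per ribosome, and are assembled with ribosomal RNA in the nucleolus by dedicated factors. Their mRNAs are among the most abundant of the liver, and most start with a cytosine followed by a run of pyrimidines, the terminal oligopyrimidine (TOP) motif, through which the kinase complex mTORC1 controls their translation. Some members have a second gene, such as Rpl22 and Rpl22l1, whose product takes the same place in the ribosome. Transcript levels say nothing of the number of ribosomes or of their activity.

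Bases around an annotated start are shown for some of the members on which the results turn, because the TOP motif lies there. Each line gives 30 bases of the sense strand, 5′ to 3′, from 10 bases before the annotated start, and the capitals mark a C followed by at least 4 C or T, where that run starts within 5 bases of the annotated start. The starts and sequences are those of RefSeq for GRCm38.p6, the assembly that mm10 names. For Rps24, Rpl22 and Rps27l 2 starts are listed, and 1 is printed. The printed starts of Rpl22, Rpl18 and Rps27l lie downstream of the first base of the gene. Rpl12, Rpl13a, Rps10, Rpl18, Rps24 and Rpl22l1 rose in OPA1 LKO, and the other 5 did not pass the test.
Rpl12, chr2:32961702-32961731, plus strand: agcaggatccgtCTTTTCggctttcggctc
Rpl13a, chr7:45128726-45128755, minus strand: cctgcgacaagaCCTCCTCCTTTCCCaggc
Rps10, chr17:27635225-27635254, minus strand: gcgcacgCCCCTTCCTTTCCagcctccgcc
Rpl18, chr7:45718061-45718090, plus strand: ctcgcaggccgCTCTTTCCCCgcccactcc
Rps24, chr14:24490668-24490697, plus strand: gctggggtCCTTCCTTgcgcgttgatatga
Rpl22l1, chr3:28805498-28805527, plus strand: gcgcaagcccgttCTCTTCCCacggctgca
Rpl22, chr4:152325716-152325745, plus strand: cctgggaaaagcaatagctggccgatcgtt
Rps27, chr3:90213629-90213658, minus strand: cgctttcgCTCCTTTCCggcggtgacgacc
Rps27l, chr9:66946076-66946105, plus strand: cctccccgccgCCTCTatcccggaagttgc
Rpl9, chr5:65391412-65391441, minus strand: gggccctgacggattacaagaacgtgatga
Rpl7l1, chr17:46782637-46782666, minus strand: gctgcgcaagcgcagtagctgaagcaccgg

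The libraries held between 16076404 and 20471271 expected counts on genes. The targeted gene, Opa1, was at 39.9, 51.9, 44.0, 57.6 and 46.9 CPM (a gene's share of the library's counts on a fixed scale, with library sizes scaled by TMM) in CTRL 1 to 5 and at 24.7, 34.4 and 34.0 CPM in OPA1 LKO 1 to 3. Every OPA1 LKO library lay below every CTRL library, with a log2 fold change of -0.63 ± 0.17 (SE) and an adjusted p of 0.0539 by edgeR's quasi-likelihood test. CTRL 1 stood apart from the other libraries, at -58.4 on the second principal component and at 134 CPM for Apoe against 20759 to 33179 CPM elsewhere, so the main counts are also given without it. Hepatocyte markers summed to 59689 to 106445 CPM in CTRL and 72756 to 94230 CPM in OPA1 LKO, most of it from Alb. Of the 8 hepatocyte markers 2 rose and 0 fell by edgeR, beside 3.34% and 2.69% of all genes tested. Those that rose were Tat (log2 fold change 1.61, edgeR adjusted p = 0.00950) and Pck1 (1.05, edgeR adjusted p = 0.0220).

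Transcripts of the ribosomal proteins took a larger share of the OPA1 LKO libraries than of the CTRL libraries. The summed TPM of the 81 members made up 7.11%, 5.14%, 4.65%, 4.81% and 4.58% of all TPM in CTRL 1 to 5, and 9.42%, 7.97% and 7.63% in OPA1 LKO 1 to 3. All 3 OPA1 LKO libraries lay above all 5 CTRL libraries, and the nearest pair was CTRL 1 and OPA1 LKO 3. The mean was 5.26% ± 1.06 (SD, n = 5) in CTRL and 8.34% ± 0.951 (SD, n = 3) in OPA1 LKO, a ratio of 1.59, which was 1.74 without CTRL 1. Because bulk tissue was sequenced, fewer cells of a type and less RNA per cell cannot be told apart, and a share can move with any other large group of transcripts.

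Transcripts of the mitochondrial genome are one such group, with 20.4% to 36.4% of TPM in CTRL and 18.4% to 32.6% in OPA1 LKO. With these taken out of the total, the members' share was 8.93%, 6.65%, 7.31%, 6.60% and 6.40% in CTRL 1 to 5 and 12.2%, 9.77% and 11.3% in OPA1 LKO 1 to 3. The groups again did not overlap, and the ratio of the means was 1.54. As a share of expected counts, uncorrected for length, the members took 2.51% ± 0.462 (SD, n = 5) in CTRL and 3.95% ± 0.428 (SD, n = 3) in OPA1 LKO. The subunits kept their proportion, with a summed TPM of the large over the small subunit of 1.30 ± 0.0332 (SD) in CTRL and 1.34 ± 0.0404 (SD) in OPA1 LKO.

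**Figure D1:**
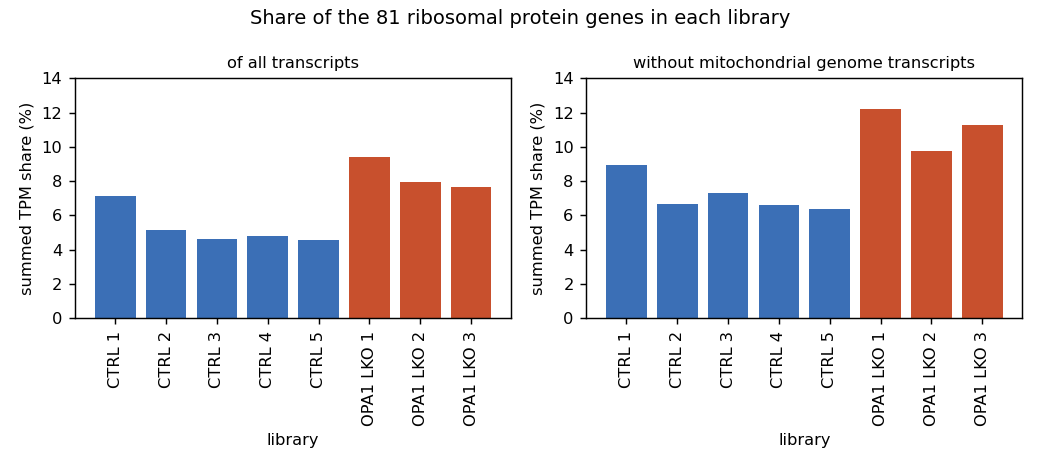
Summed TPM of the 81 ribosomal protein genes as a percentage of all TPM (left) and of TPM without the mitochondrial genome (right), 1 bar for each library, CTRL in blue and OPA1 LKO in red. The OPA1 LKO bars lie between 7.63% and 9.42% on the left, and CTRL 1 is the highest CTRL library on both sides.

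In the test of each gene, 18 of the 81 members (22.2%) rose in OPA1 LKO and 0 fell, by edgeR's quasi-likelihood test with Benjamini-Hochberg adjustment over all genes. Over all genes tested, 6.03% changed, 3.34% of them upward and 2.69% downward as shares of the 14036 genes. Of the 18, 11 belong to the large and 7 to the small subunit. At an unadjusted p under 0.05, 63 members were higher and 0 lower, beside 11.5% and 12.3% of all genes. The fitted log2 fold change was positive in 78 members (96.3%, against 46.9% of all genes), with a median of 0.48 (quartiles 0.36 and 0.58), where the median over all genes was -0.03. The large subunit had a median of 0.48 and the small subunit one of 0.49.

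In CPM, every OPA1 LKO library exceeded every CTRL library for 54 of the 81 members (66.7%, against 8.0% of all genes), and for 0 members did every OPA1 LKO library lie below every CTRL library (8.41% of all genes). By library, the median member deviated from its CTRL mean by 0.12, -0.10, 0.05, 0.11 and -0.18 on the log2 scale in CTRL 1 to 5, and by 0.58, 0.38 and 0.49 in OPA1 LKO 1 to 3. OPA1 LKO 1 held the highest of the 8 values for 56 members, OPA1 LKO 3 for 12, OPA1 LKO 2 for 10 and CTRL 4 for 3. Among the CTRL libraries, CTRL 1 was the highest for 35 members and CTRL 4 for 32, and CTRL 5 was the lowest for 43.

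The number of members past the threshold depended on single libraries. Without CTRL 1, 32 members rose, among them all 18, and 0 fell, where 12.2% of all genes changed, 6.65% upward and 5.59% downward. Without OPA1 LKO 1 the edgeR test called 0 members and 1.38% of all genes, and 39 members had an unadjusted p under 0.05, 1 of them lower. Leaving out CTRL 2, 3, 4 or 5 gave 4, 10, 8 and 5 members, beside 3.19%, 5.12%, 3.56% and 3.03% of all genes, and leaving out OPA1 LKO 2 or 3 gave 11 and 3, beside 4.69% and 1.60%. The share of the members without CTRL 2 was thus near that of all genes. Each of the 18 genes had its highest edgeR adjusted p among these fits without OPA1 LKO 1, from 0.0554 for Rpl22l1 to 0.239 for Rpl10a. Rpl22l1 and Rplp1 passed in 7 of the 8 fits, Rpl13a in 6, Rpsa in 5, Rpl36a in 4 and Rpl12 in 3. In these 8 fits the log2 fold change was positive in 77 to 80 members. DESeq2 called 51 members higher and 0 lower, where 12.1% of all genes changed, 5.99% upward and 6.06% downward. The limma test on log2(TPM + 1) called 8 members higher and 0 lower, where 2.98% of genes changed, 2.32% upward and 0.663% downward.

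**Figure D2:**
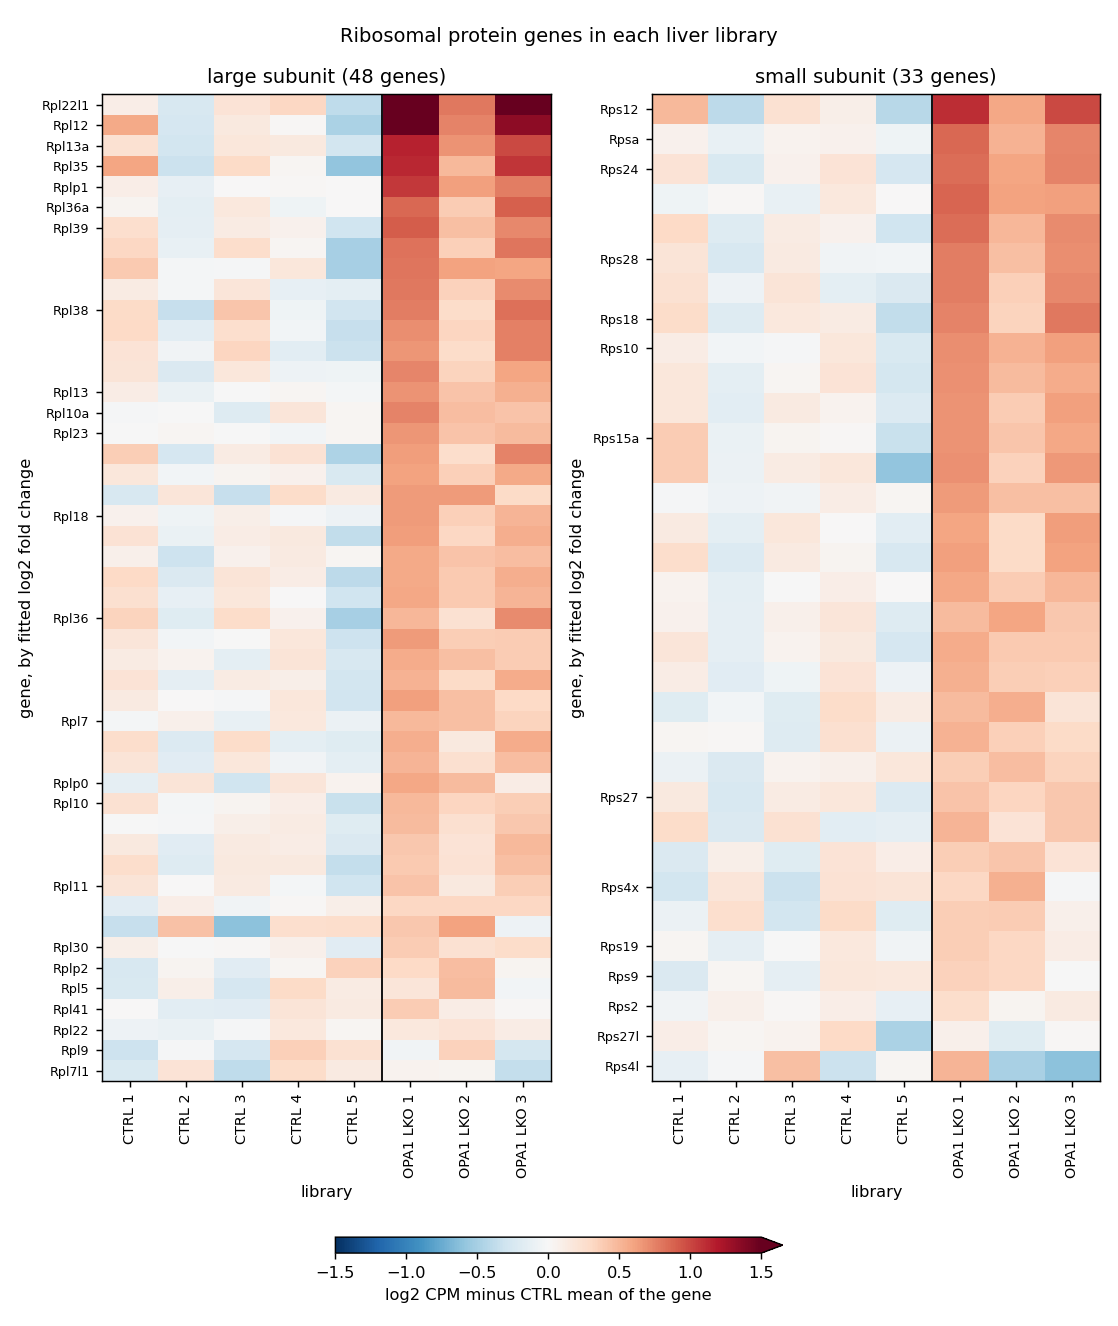
Deviation of each ribosomal protein gene from its CTRL mean in log2 CPM, with genes as rows ordered by fitted log2 fold change, libraries as columns, and the black line between CTRL and OPA1 LKO. Red is higher and blue lower, values above 1.5 share the darkest red, and the rows labelled are genes described in the text. OPA1 LKO 1 holds the highest value for 56 of the 81 genes.

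Rpl22l1, the paralog of Rpl22, showed the largest fold change of all members. The gene (Entrez 68028) lies at chr3:28805508-28807424. Its level was 48.8, 38.5, 52.5, 56.2 and 34.8 CPM in CTRL 1 to 5 and 152, 78.3 and 140 CPM in OPA1 LKO 1 to 3. All 3 OPA1 LKO libraries were above the highest CTRL library, with OPA1 LKO 2 the lowest of them. The means were 46.2 ± 9.17 (SD, n = 5) and 124 ± 39.6 (SD, n = 3), a log2 fold change of 1.42 ± 0.23 (SE) with an edgeR adjusted p of 0.00914. It was under the threshold in each fit that left out 1 library except that without OPA1 LKO 1, where the edgeR adjusted p was 0.0554.

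Among proteins of the ribosomal stalk, the flexible arm of the large subunit that recruits translation factors, Rpl12 and Rplp1 rose. Rpl12, which forms the base of the stalk, was at 486, 275, 362, 332 and 236 CPM in CTRL and 930, 551 and 828 CPM in OPA1 LKO. The groups did not overlap, but CTRL 1 at 486 CPM came near OPA1 LKO 2 at 551 CPM. Its log2 fold change of 1.19 ± 0.25 (SE) had an edgeR adjusted p of 0.0239 that rose to 0.128 without OPA1 LKO 1. Rplp1, an acidic stalk protein, was at 369, 316, 344, 348 and 345 CPM in CTRL and 718, 527 and 586 CPM in OPA1 LKO. Its CTRL libraries were close together and all OPA1 LKO libraries stood well above them, with a log2 fold change of 0.83 ± 0.14 (SE) and an edgeR adjusted p of 0.0126.

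The other stalk proteins did not pass the test, and they are named here after their values were seen. Rplp0, which joins the acidic proteins to the ribosome, was at 363, 457, 325, 455 and 416 CPM in CTRL and 596, 554 and 432 CPM in OPA1 LKO. OPA1 LKO 3 lay within the CTRL range, and the log2 fold change was 0.39 ± 0.17 (SE, edgeR adjusted p = 0.206). Rplp2, the partner of Rplp1, was at 146, 178, 154, 176 and 219 CPM in CTRL and 213, 238 and 178 CPM in OPA1 LKO. The groups overlapped, with a log2 fold change of 0.27 ± 0.17 (SE, edgeR adjusted p = 0.369). Whether Rplp1 changed more than these partners was not tested.

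Of the other large subunit proteins, Rpl13a had the largest rise. Rpl13a, known also for a role outside the ribosome in silencing inflammatory mRNAs, was at 726, 511, 694, 683 and 510 CPM in CTRL and 1369, 983 and 1224 CPM in OPA1 LKO. Every OPA1 LKO library was above every CTRL library, at a log2 fold change of 0.93 ± 0.19 (SE, edgeR adjusted p = 0.0192). Rpl36a was at 158, 139, 172, 147 and 154 CPM in CTRL and 278, 200 and 287 CPM in OPA1 LKO, without overlap. Its log2 fold change was 0.73 ± 0.15 (SE, edgeR adjusted p = 0.0239). Rpl39, a small protein of the tunnel through which the new chain leaves, was at 205, 157, 188, 181 and 140 CPM in CTRL and 324, 236 and 285 CPM in OPA1 LKO. The groups again were apart, with a log2 fold change of 0.69 ± 0.17 (SE, edgeR adjusted p = 0.0392).

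Other large subunit genes that rose had smaller changes. Rpl23, one of the proteins that bind the p53 ligase Mdm2, had the tightest CTRL group of these, at 270, 278, 271, 263 and 276 CPM, and was at 428, 366 and 377 CPM in OPA1 LKO. Its libraries did not overlap, with a log2 fold change of 0.52 ± 0.12 (SE, edgeR adjusted p = 0.0371). Rpl13 went from a mean of 320 ± 16.6 CPM (SD, n = 5) to 469 ± 39.3 CPM (SD, n = 3). Rpl18 went from 232 ± 11.9 to 328 ± 32.8 CPM and Rpl10a from 218 ± 20.2 to 319 ± 39.4 CPM. For these 3 genes the log2 fold changes were 0.55, 0.50 and 0.55, and the edgeR adjusted p was 0.0361, 0.0487 and 0.0492.

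In the small subunit, 7 genes rose. Rpsa, also known as the laminin receptor, was at 522, 461, 516, 523 and 476 CPM in CTRL and 904, 716 and 826 CPM in OPA1 LKO. The groups were apart, with a log2 fold change of 0.71 ± 0.14 (SE, edgeR adjusted p = 0.0188). Rps24, mutated in some families with Diamond-Blackfan anaemia, was at 529, 394, 481, 531 and 388 CPM in CTRL and 822, 691 and 773 CPM in OPA1 LKO. No OPA1 LKO library reached down to the CTRL range, and the log2 fold change was 0.71 ± 0.16 (SE, edgeR adjusted p = 0.0327). Rps28 went from 200 ± 23.5 CPM (SD, n = 5) to 311 ± 34.2 CPM (SD, n = 3) and Rps10 from 282 ± 30.2 to 430 ± 25.8 CPM. Their log2 fold changes were 0.64 and 0.60, with edgeR adjusted p of 0.0342 and 0.0344. Over all 18 genes that rose, the median log2 fold change was 0.68 and the smallest was 0.50, that of Rpl18.

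Rps12 and Rpl35 had fold changes among the 10 largest but did not pass the threshold. Rps12 was at 653, 356, 548, 496 and 349 CPM in CTRL and 1001, 699 and 924 CPM in OPA1 LKO. The groups did not overlap, although CTRL 1 at 653 CPM was close to OPA1 LKO 2 at 699 CPM. Its log2 fold change of 0.86 ± 0.23 (SE) had an edgeR adjusted p of 0.0558, which became 0.0184 without CTRL 1. Rpl35 was at 467, 247, 377, 316 and 204 CPM in CTRL and 676, 431 and 647 CPM in OPA1 LKO. Here CTRL 1 was above OPA1 LKO 2, and the log2 fold change of 0.86 ± 0.27 (SE) had an edgeR adjusted p of 0.0901, or 0.0248 without CTRL 1.

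**Figure D3:**
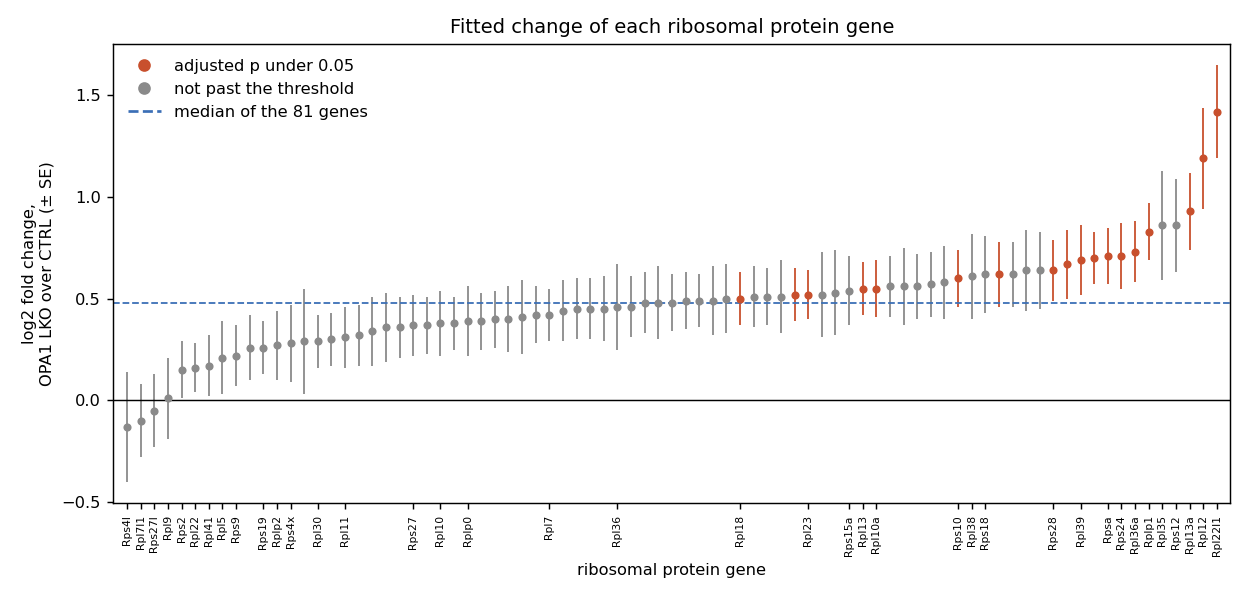
Fitted log2 fold change of each of the 81 ribosomal protein genes, OPA1 LKO over CTRL, as points with bars of 1 SE on either side, ordered by size. Red points are the 18 genes with an adjusted p under 0.05, the dashed line is the median of 0.48, 3 genes lie below 0, and the genes labelled are those described in the text.

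Among the most abundant members per length were Rps12 at a mean of 1879 TPM over the 8 libraries, Rpl38 at 1783 TPM, Rps27 at 1774 TPM, Rps18 at 1694 TPM and Rplp1 at 1540 TPM. They were followed by Rpl35 at 1537 TPM, Rpl41 at 1520 TPM and Rpl36 at 1491 TPM, and Rpl10 at 1365 TPM was also among the 10 most abundant. Of these genes Rplp1 passed the test. In CPM, the level in every OPA1 LKO library was above every CTRL library for Rps18, a gene of the small subunit, and for Rpl10, which joins the large subunit late in its assembly. Their log2 fold changes were 0.62 ± 0.19 and 0.38 ± 0.16 (SE), with edgeR adjusted p of 0.0851 and 0.184.

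Of the other abundant genes, Rpl38, Rpl36 and Rpl41 had overlapping groups. Rpl38, known for a part in the translation of Hox mRNAs, was at 284, 183, 310, 223 and 191 CPM in CTRL and 396, 283 and 413 CPM in OPA1 LKO, with a log2 fold change of 0.61 ± 0.21 (SE, edgeR adjusted p = 0.121). OPA1 LKO 2 lay within the CTRL range. Rpl36 had a log2 fold change of 0.46 ± 0.21 and Rpl41, the shortest ribosomal protein, one of 0.17 ± 0.15 (SE), with edgeR adjusted p of 0.207 and 0.533. Across the 81 members the log2 fold change had a Spearman correlation of 0.26 with the mean TPM and of -0.20 with the effective length, as a description, since the members share their libraries.

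The members are short genes, so their change was set beside that of other genes of like length. Of the members, 35 had an effective length over 300 and up to 600 bases, and their median log2 fold change was 0.50, against -0.05 for the 505 other tested genes of that class. Between 600 and 1000 bases the medians were 0.45 for 22 members and -0.08 for 1010 other genes. Up to 300 bases they were 0.46 for 11 members and -0.05 for 107 others, between 1000 and 2000 bases 0.41 for 9 members and -0.06 for 3682 others, and above 2000 bases 0.35 for 4 members and -0.02 for 8651 others. In every length class the members' median was above that of the other genes. The mean fragment length implied by the expected counts and TPM lay between 150 and 159 bases in all 8 libraries.

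Some members did not share the pattern. Rpl9 was at 172, 211, 179, 273 and 251 CPM in CTRL and 206, 271 and 178 CPM in OPA1 LKO. The groups overlapped throughout, and the log2 fold change was 0.01 ± 0.20 (SE, edgeR adjusted p = 0.988). Rps2, Rps9, Rps19 and Rpl5 had log2 fold changes of 0.15 ± 0.14, 0.22 ± 0.15, 0.26 ± 0.13 and 0.21 ± 0.18 (SE), with overlapping libraries. Their edgeR adjusted p was 0.545, 0.429, 0.269 and 0.528. Rpl5 binds the small ribosomal RNA of the large subunit together with Rpl11 and, free of the ribosome, Mdm2. Rpl11, named after its values were seen, had a log2 fold change of 0.31 ± 0.15 (SE, edgeR adjusted p = 0.254).

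Besides Rpl22l1, the members Rps27l, Rpl7l1 and Rps4l are paralogs of a ribosomal protein expressed in the same liver, and these 3 had the lowest fitted changes of all members. Rps27l, a p53 target, was at 408, 387, 394, 467 and 273 CPM in CTRL and 402, 335 and 385 CPM in OPA1 LKO, and the OPA1 LKO libraries lay within the CTRL range. Its log2 fold change was -0.05 ± 0.18 (SE, edgeR adjusted p = 0.904), with a sign that turned to 0.04 under upper-quartile scaling. Rpl7l1, known as an assembly factor, was at 47.0, 63.4, 42.5, 66.5 and 60.6 CPM in CTRL and 57.4, 56.6 and 43.0 CPM in OPA1 LKO. It too overlapped, at -0.10 ± 0.18 (SE, edgeR adjusted p = 0.783), and its sign turned to 0.07 with limma on TPM. Rps4l was at 13.3, 14.3, 19.8, 11.6 and 14.8 CPM in CTRL and 20.6, 10.4 and 9.47 CPM in OPA1 LKO, the widest scatter of the 3. Its log2 fold change was -0.13 ± 0.27 (SE, edgeR adjusted p = 0.803), and the sign turned to 0.02 without CTRL 3.

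To compare each paralog with its partner, its TPM was set over the partner's in every library. The ratio was tested by permutation, exact and two-sided, with 56 possible divisions of 8 libraries into 5 and 3 and a smallest possible p of 0.0357. Both ratio and test were chosen after the values were seen. Rpl22l1 stood at 195%, 156%, 205%, 199% and 133% of Rpl22 in CTRL 1 to 5 and at 525%, 259% and 503% in OPA1 LKO 1 to 3. All OPA1 LKO ratios were above all CTRL ratios, and the mean log2 ratio was 0.81 ± 0.27 (SD) in CTRL and 2.03 ± 0.57 (SD) in OPA1 LKO, with an exact permutation p of 0.0357 (0.0476 adjusted over 4 pairs). Rpl22 itself was at 142, 140, 148, 167 and 152 CPM in CTRL and 167, 173 and 161 CPM in OPA1 LKO. Its groups overlapped, with a log2 fold change of 0.16 ± 0.12 (SE, edgeR adjusted p = 0.473).

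In the other pairs the ratio was lower on average in OPA1 LKO. Rps27l stood at 68.3%, 85.2%, 66.8%, 76.1% and 58.0% of Rps27 in CTRL and at 55.5%, 49.3% and 53.6% in OPA1 LKO, all 3 below the lowest CTRL ratio. The mean log2 ratio differed by -0.41 (exact permutation p = 0.0357, adjusted 0.0476). Rpl7l1 stood at 4.13%, 5.15%, 3.95%, 5.07% and 5.48% of Rpl7 in CTRL and at 3.51%, 3.52% and 2.93% in OPA1 LKO, again without overlap. The difference was -0.51 (exact permutation p = 0.0357, adjusted 0.0476). For Rps4l over Rps4x the groups overlapped, with a difference of -0.49 and an exact permutation p of 0.250. Of the partners, Rps27 and Rpl7 had log2 fold changes of 0.37 ± 0.15 and 0.42 ± 0.13 (SE), with edgeR adjusted p of 0.167 and 0.0930.

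**Figure D4:**
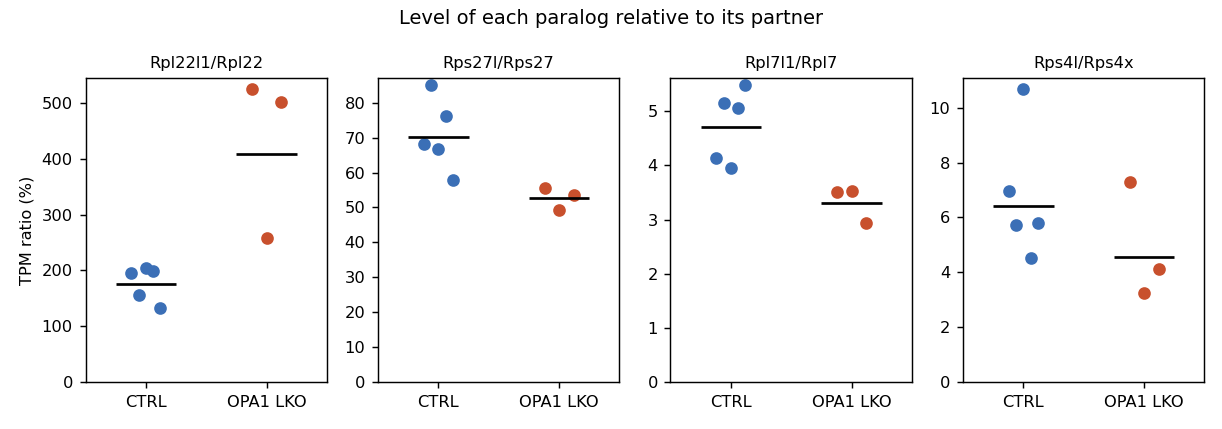
TPM of each paralog as a percentage of its partner in each library, with CTRL in blue, OPA1 LKO in red, and a line at the group's geometric mean. The Rpl22l1 ratio is above every CTRL library in all 3 OPA1 LKO libraries, the Rps27l and Rpl7l1 ratios are below, and those of Rps4l overlap.

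RSEM divides reads that match several places by estimation, and ribosomal protein genes have many processed pseudogenes, so the level of any member is uncertain by the reads it shares with copies. The 12 pseudogene rows of the table with an Rpl or Rps name and the ending -ps summed to 286 ± 82.1 TPM (SD, n = 5) in CTRL and 472 ± 55.6 TPM (SD, n = 3) in OPA1 LKO. The groups overlapped here, with CTRL 1 at 430 TPM and OPA1 LKO 2 at 418 TPM. Both the members and these pseudogene rows were thus higher on average in OPA1 LKO, and how reads were split between them was not tested.

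Within members that have several transcripts, no difference in their proportions between the groups was detected. Of 27 transcript shares in 17 members, 0 had an unadjusted exact permutation p under 0.05, and the lowest was 0.0714, for a transcript of Rpl30. Shares of expected counts gave 0 as well. Some shares differed between libraries of the same group. The Rps24 transcript NM_207634.1 made up 64.5%, 47.8%, 74.0%, 48.7% and 50.1% of Rps24 TPM in CTRL 1 to 5 and 71.4%, 46.3% and 75.4% in OPA1 LKO 1 to 3. The Rps4x transcript NM_009094.2 made up 48.5%, 89.6%, 40.9%, 87.8% and 79.2% in CTRL and 61.5%, 87.4% and 40.2% in OPA1 LKO. In both genes CTRL 1, CTRL 3, OPA1 LKO 1 and OPA1 LKO 3 stood together on one side, and the cause was not tested.

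Start sites were available from RefSeq for 60 of the 81 members. A C followed by at least 4 C or T on the sense strand, starting within 5 bases of an annotated start, was found in 29 of these (48.3%), against 21.2% of all 27025 genes with an entry. Among members that rose, 7 of 13 had such a run, and among the others 22 of 47. The median log2 fold change was 0.50 in members with the run and 0.44 in those without. Of the windows printed above, those of Rpl22l1, which rose, and Rps27l, which did not pass the test, have a run. Rpl22, Rpl9 and Rpl7l1 have none in the windows shown. Every printed member that rose has a run, although only 7 of the 13 do, and those without one are not printed. The printed windows thus do not stand for the members as a whole.

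In the 300 bases from 250 before to 50 after the start, on either strand, CCGGAAG (the core bound by ETS factors) occurred in 25 of the 60 members (41.7%, against 9.93% of all genes). It was found in 3 of the 13 that rose and in 22 of the other 47. AAGATGG, the core of the YY1 site, occurred in 10 (16.7% against 7.28%), GGGCGG, bound by Sp1, in 38 (63.3% against 38.2%), and TATAAA in 7 (11.7% against 15.7%). Of the 13 that rose, AAGATGG was in 1, GGGCGG in 10 and TATAAA in 4. Of the other 47 these were in 9, 28 and 3, and the difference was not tested. None of these motifs contains another. A match is a description of the letters in the window, and factor binding was not measured.

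Other proteins of the translating ribosome were a mixed group, of which 2 of 6 rose and 0 fell, beside 3.34% and 2.69% of all genes. Rack1, the signalling scaffold on the head of the small subunit, was at 331, 313, 282, 341 and 287 CPM in CTRL and 482, 455 and 424 CPM in OPA1 LKO. The groups did not overlap, with a log2 fold change of 0.55 ± 0.13 (SE, edgeR adjusted p = 0.0420). Rps27rt, a further copy of Rps27 with low levels, went from 17.3 ± 3.59 CPM (SD, n = 5) to 31.0 ± 6.41 CPM (SD, n = 3), with an edgeR adjusted p of 0.0326. Fau, whose product is a ribosomal protein made as a fusion with a ubiquitin-like protein, had a log2 fold change of 0.08 ± 0.13 (SE), and Rpl36al one of 0.07 ± 0.13. Serbp1, which binds idle ribosomes, was at 0.26 ± 0.16. Their edgeR adjusted p was 0.756, 0.755 and 0.367.

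Factors that make ribosomes included further genes that rose. Of 44 ribosome assembly genes 7 rose and 0 fell, with a median log2 fold change of 0.39. The number that rose was 11 without CTRL 1, 15 with DESeq2 and 3 with limma, and 28 were higher and 0 lower at an unadjusted p under 0.05 in edgeR. Over all genes, 3.34% rose by edgeR, 6.65% without CTRL 1, 5.99% with DESeq2 and 2.32% with limma. At an unadjusted p under 0.05, 11.5% of all genes were higher in edgeR. These shares also stand beside the counts of the lists below. The 7 were Nop58, a core protein of box C/D snoRNPs (1.03 ± 0.21, SE, edgeR adjusted p = 0.0195), Nhp2 of the box H/ACA snoRNPs (0.71, 0.0250), the ribosomal RNA methyltransferase Nop2 (0.96, 0.0177), the endonuclease Nob1 (0.75, 0.0161), Tsr1 (0.81, 0.0485), Ebna1bp2 (0.67, 0.0381) and Wdr43 (0.66, 0.0314), each with its log2 fold change and edgeR adjusted p. Nop58 was at 17.7, 15.7, 17.2, 12.9 and 13.2 CPM in CTRL and 40.9, 20.8 and 32.4 CPM in OPA1 LKO, without overlap and with OPA1 LKO 2 nearest to CTRL.

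Of 14 genes of the RNA polymerase I machinery, which transcribes ribosomal RNA, 1 rose and 0 fell, with a positive fitted value in all 14 and a median of 0.52. It was 2 genes without CTRL 1, 4 with DESeq2 and 0 with limma, and 10 at an unadjusted p under 0.05 in edgeR. The gene that rose was Polr1a, the largest subunit, from 13.5 ± 0.711 CPM (SD, n = 5) to 22.4 ± 5.47 CPM (SD, n = 3), with an edgeR adjusted p of 0.0295. Taf1a and Cd3eap, at log2 fold changes of 0.76 and 0.78, did not pass (edgeR adjusted p = 0.0512 and 0.0759). Of 10 host genes of snoRNAs, 2 rose and 0 fell, with a median of 0.65, and 4 rose without CTRL 1, 6 with DESeq2 and 1 with limma. Snhg3 went from 10.3 ± 2.28 to 22.6 ± 10.1 CPM and Snhg6 from 13.1 ± 1.87 to 20.6 ± 3.83 CPM, with edgeR adjusted p of 0.0395 and 0.0435. Zfas1 had a log2 fold change of 0.66 (edgeR adjusted p = 0.0552).

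Translation factors and other genes whose mRNAs carry the TOP motif gave no call. Of 20 such genes, among them Eef1a1, Eef2, Tpt1 and Npm1, 0 rose and 0 fell, with a median of 0.16 and a positive log2 fold change in 13. At an unadjusted p under 0.05 edgeR had 3 higher and 1 lower, DESeq2 called 1 higher and limma 0. The smallest p belonged to Eef1d (0.28 ± 0.11), Pabpc1 (0.40 ± 0.15) and Eif4a2 (-0.54 ± 0.19, SE), at edgeR adjusted p of 0.165, 0.146 and 0.127. Whether this list differed from the ribosomal proteins was not tested, and the medians are set side by side as a description.

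The median of 22 genes that act on translation through mTORC1 was 0.00. Of them, 1 rose and 0 fell, near the shares of 3.34% and 2.69% over all genes. The gene was Ddit4, an inhibitor of mTORC1 induced by stress, which was at 4.46, 3.43, 7.72, 5.08 and 4.87 CPM in CTRL and 31.0, 27.5 and 52.2 CPM in OPA1 LKO. Every OPA1 LKO library was several times the highest CTRL library, with a log2 fold change of 2.85 ± 0.27 (SE, edgeR adjusted p = 0.000766). Myc, a transcription factor for ribosome genes kept in this list, was at 12.9, 2.30, 3.24, 5.83 and 3.32 CPM in CTRL and 24.6, 10.7 and 20.7 CPM in OPA1 LKO. CTRL 1 overlapped with OPA1 LKO 2, and the edgeR adjusted p was 0.0688, or 0.00322 without CTRL 1. Deptor, an inhibitor within mTORC1, had a log2 fold change of -0.60 ± 0.17 (SE) and an edgeR adjusted p of 0.0636, or 0.0100 without CTRL 1. Without CTRL 1 this list had 2 genes higher and 2 lower, beside 6.65% and 5.59% of all genes. With all libraries DESeq2 called 2 higher and 1 lower, beside 5.99% and 6.06% of all genes. At an unadjusted p under 0.05 edgeR had 3 higher and 2 lower, beside 11.5% and 12.3% of all genes. Of 10 genes for the rescue of stalled ribosomes 1 rose and 0 fell, Gtpbp2, with a log2 fold change of 0.97 ± 0.21 (SE, edgeR adjusted p = 0.0285).

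**Figure D5:**
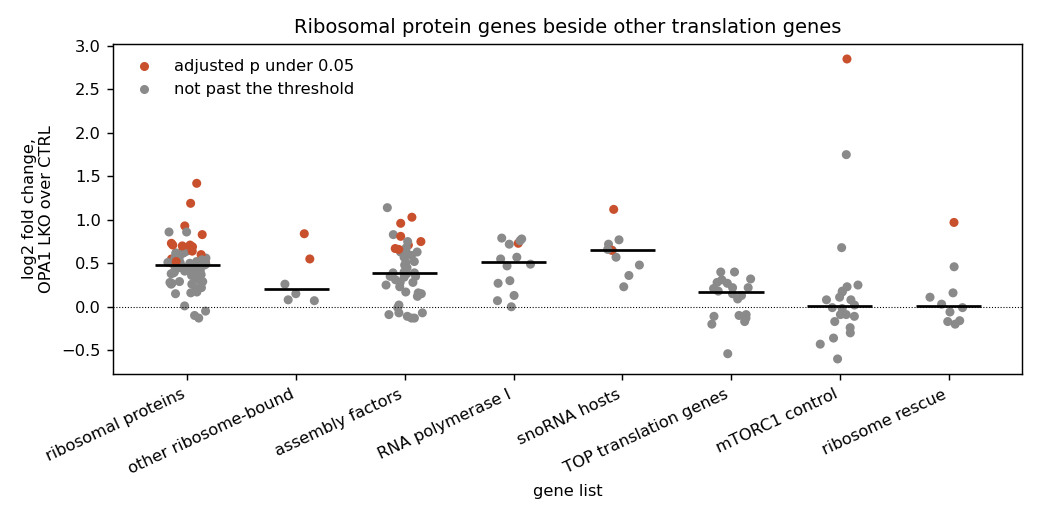
Fitted log2 fold change, OPA1 LKO over CTRL, of the ribosomal protein genes and of 7 lists of related genes, 1 point for each gene, red where the adjusted p is under 0.05, with a line at the list's median. The medians are 0.48 for the ribosomal proteins, 0.65 for the snoRNA hosts, 0.16 for the TOP translation genes and 0.00 for the mTORC1 list.

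Markers of other liver cells were measured beside these changes. Cholangiocyte markers, of which 3 of 6 rose (Krt7, Sox9 and Spp1), summed to 17.5 to 66.3 CPM in CTRL and 140 to 202 CPM in OPA1 LKO, with Cftr at 0 in CTRL 1 and CTRL 2. Except in CTRL 3, most of that sum was Spp1, at 13.9 to 33.1 CPM in CTRL and 122 to 176 CPM in OPA1 LKO. In CTRL 3, the library with the sum of 66.3 CPM, Spp1 was at 21.0 CPM. Krt19 and Epcam were highest in CTRL 3, at 22.3 and 16.8 CPM. In OPA1 LKO these genes were at 2.13 to 5.67 CPM and 5.15 to 10.5 CPM. In CTRL 1, 2, 4 and 5 they were at 0.319 to 1.03 CPM and 0.506 to 0.892 CPM, below every OPA1 LKO library. Cftr was at 3.02 CPM in CTRL 3 and at most 0.115 CPM in the other CTRL libraries. Its level was at least 0.540 CPM in OPA1 LKO. With CTRL 3 included, the fitted log2 fold changes of Krt19, Epcam and Cftr were -0.50, 0.96 and -0.11, none past the threshold. Stellate cell markers summed to 171 to 244 CPM and 229 to 482 CPM, with 0 of 6 changed by edgeR. All 6 had a positive log2 fold change, with a median of 0.75, and 3 had an unadjusted p under 0.05, while DESeq2 and limma called 0. Their sum was highest in OPA1 LKO 2, at 482 CPM, of which Dcn made up 336 CPM. Macrophage markers (151 to 674 against 182 to 246 CPM), endothelial markers (89.0 to 146 against 74.0 to 152 CPM), lymphocyte and neutrophil markers (7.48 to 23.7 against 9.35 to 20.4 CPM) and erythroid markers (276 to 588 against 234 to 520 CPM) overlapped between the groups, and 0 genes of these lists passed the edgeR test. In these 4 lists 1 gene was higher and 2 lower at an unadjusted p under 0.05, and DESeq2 called 1 macrophage gene lower and limma 0. The part of cells other than hepatocytes in the higher ribosomal protein levels was not tested.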

How the data were processed

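Per the submitters' processing notes, reads were processed with STAR, RSEM, StringTie and MultiQC on the mouse genome mm10. The sources used here give neither versions nor the annotation. Deposited by the authors were expected counts of RSEM, which are not normalised, and TPM, per gene and per transcript. Here gene expected counts were rounded, filtered with filterByExpr (minimum 10, total 15), scaled with TMM and tested with edgeR 4.0.16 (quasi-likelihood, group only) in R 4.3.3, adjusted by Benjamini-Hochberg over 14036 genes, with 0.05 as threshold. Standard errors came from the fold change and test statistic. The steps were tested on simulated data. DESeq2 1.42.0, limma 3.58.1 on log2(TPM + 1) over genes with a mean of at least 1 TPM, other scalings, no filter, a replicate block and leaving out each library were the alternatives. Fold changes on that log2 scale understate those of low genes.

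The members and gene lists were chosen with earlier results of these data known. Named members were those past the threshold, the 10 most abundant, the 10 largest and 10 smallest changes, paralog pairs and those nearest the TPM minimum. Of other lists, genes past the threshold and some with the smallest p are named. A few further genes covered by this rule are left out of the text.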

Additional observations from a re-analysis of the deposited data

Results flagged for a closer look

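In 2 cases a single CTRL library lay farther from the other 4 than Dixon's 95% criterion allows, a criterion that chance meets in about 1 in 20 groups. The summed share of ribosomal protein transcripts in TPM was 7.11% in CTRL 1, against 5.14% in the next CTRL library and 4.58% in the lowest. The level of Rpl37a, a large subunit protein, was 214 CPM in CTRL 2, against 271 CPM in the next lowest CTRL library and 292 CPM in the highest. Rpl37a was the 1 member of 81 with such a CTRL library.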

How the results depend on the processing

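The direction of the members as a group was kept in every alternative run, with 77 to 80 of 81 positive and a median 0.45 to 0.57 above that of all genes. The number of members that changed, all of them higher, was 51 with DESeq2, 10 without the low-count filter and 8 with limma on log2(TPM + 1), and ranged from 0 to 32 when 1 library was left out. Over all genes, 1692 changed with DESeq2 and 333 with limma, and 198 to 1701 when 1 library was left out. The split of higher and lower genes was 469 and 377 with edgeR, and 259 and 74 with limma. On the log2(TPM + 1) scale the median log2 fold change was 0.66 for the members, for the large and for the small subunit alike, with 0.09 over all genes, so it is read relative to that shift.

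Replicates 1 to 3 share numbers between the groups, but the correlations of same-numbered deviations were 0.041, 0.104 and 0.173 over 14036 genes, so the numbers were not taken to pair the samples, although each sample correlated best with its own number. With a replicate block over replicates 1 to 3, 4 members and 240 genes changed. Signs turned in members near 0: Rps27l to 0.04 (upper-quartile factors) and 0.14 (limma), Rpl7l1 to 0.07 (limma) and 0.06 (replicate block). When 1 library was left out, the values ranged from -0.15 to 0.05 for Rps27l, from -0.17 to 0.05 for Rpl7l1, from -0.57 to 0.09 for Rps4l and from -0.18 to 0.16 for Rpl9. The causes were not tested. The summed level of TMM-scaled counts, an alternative chosen after seeing the data, gave a difference of 0.50 between the groups' mean log2 values, where the summed share of TPM gave 0.68.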
